A study of Mus musculus with 24 samples.

Results

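The genes described here are 9 genes of the peroxisome proliferator-activated receptor (PPAR) pathway and of fatty acid oxidation: the receptors Pparg and Ppard, the target genes Fabp4, Pdk4 and Ucp2, and the oxidation enzymes Cpt1a, Acadl, Acadm and Hadha. They were taken as a list of symbols, and all 9 were found among the 45792 genes of the deposited values. Of these, 8 passed the filter on low values and were tested with the 14227 genes kept; Pdk4 did not pass. RNA was sequenced from liver cells of female C57BL/6 mice kept for 2 weeks on a diet without methionine and choline, which brings on fat accumulation and inflammation of the liver. The mice then received liposomes carrying the lipophilic dye DiI by vein, and 24 hours later cells with CD11c and MHC class II on their surface were sorted by the dye. The 4 groups of 3 libraries were DiI-positive cells after curcumin liposomes, DiI-positive cells after empty liposomes, DiI-negative cells after curcumin liposomes and DiI-negative cells after empty liposomes. All 4 groups share the diet, the dye and a liposome, so neither the diet nor the liposome itself is compared with its absence. The 24 sample records carry 12 library codes and were counted as 12 libraries. Nothing states whether each library is 1 mouse or a pool of mice; p-values therefore reflect the variation among these libraries, some of which may be technical.

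PPARs are nuclear receptors that bind fatty acids and their derivatives and act on DNA as partners of retinoid X receptors. Pparg is best known for driving lipid uptake and storage in fat cells and for lipid handling in macrophages, and Ppard for raising fatty acid oxidation. In mitochondrial oxidation, Cpt1a loads fatty acids for entry, the acyl-CoA dehydrogenases Acadl and Acadm take the first step of each round for long and medium chains, and Hadha carries out later steps.

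Values are deposited log2 values on a shrunken scale, on which changes of low genes are understated and levels of different genes are not comparable. Differences are DiI-positive minus DiI-negative or curcumin minus empty, in log2 units with their standard errors. A gene is said to have risen or fallen where limma's test gave a Benjamini-Hochberg adjusted p under 0.05 over all genes tested. A relative depth index varied 1.72-fold between libraries, and the 3 lowest were DiI-positive (0.717 to 0.897). Over both liposomes, all 8 Kupffer cell markers and all 8 B cell markers rose in DiI-positive cells, while 5 of 5 monocyte, 6 of 8 T and NK cell and 4 of 6 cDC2 markers fell. The sorted cells were thus labelled as dendritic cells but held transcripts of other cell types, in different amounts on the 2 sides of the DiI gate. In such bulk samples, fewer cells of a type and less RNA per cell cannot be told apart. Curcumin replicate 3 stood apart in both gates: its DiI-positive library had the highest endothelial list mean (9.15) and its DiI-negative library the lowest monocyte list mean of its gate (12.54).

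Pparg (chromosome 6, 115360951 to 115490399, plus strand, GRCm38) rose in DiI-positive cells. It stood at 10.08, 9.82 and 10.03 in DiI-positive cells after curcumin liposomes and at 9.94, 9.69 and 9.60 after empty liposomes. In DiI-negative cells it stood at 9.51, 9.40 and 8.49 after curcumin liposomes and at 9.22, 9.26 and 9.22 after empty liposomes. All 6 DiI-positive libraries lay above all 6 DiI-negative ones, and curcumin DiI-negative replicate 3 was far below the other libraries of its gate. The mean was 9.86 ± 0.19 in DiI-positive and 9.18 ± 0.36 in DiI-negative cells (SD, n = 6 each), a difference of 0.68 ± 0.16 (95% interval 0.33 to 1.02; limma adjusted p = 0.0185), or 1.60-fold. Pparg and Fabp4 were the 2 of 8 tested genes that rose in this comparison, in which 12.1% of all genes tested were called (5.54% higher and 6.56% lower in DiI-positive cells). They were also the 2 of 8 whose 6 libraries on each side did not overlap, against 6.04% of all genes in either direction and 2.52% with DiI-positive cells higher.

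The order of the group means of Pparg was curcumin DiI-positive (9.97 ± 0.14), empty DiI-positive (9.74 ± 0.18), empty DiI-negative (9.23 ± 0.02) and curcumin DiI-negative (9.13 ± 0.56; SD, n = 3 each). The libraries of the first pair overlapped, as did those of the last pair. Within curcumin liposomes the DiI-positive minus DiI-negative difference was 0.84 ± 0.23 (limma adjusted p = 0.0689) and within empty liposomes 0.51 ± 0.23 (adjusted p = 0.261), so neither passed the threshold alone. Without curcumin DiI-negative replicate 3 the difference within curcumin liposomes was 0.52 (adjusted p = 0.104). Over both liposomes it was 0.51 without that library (adjusted p = 0.0083). Leaving out any one of the 12 libraries kept the difference over both liposomes past the threshold. With the depth index as a covariate it was 0.71 but no longer passed (adjusted p = 0.0968).

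The Kupffer cell marker list moved with Pparg between the gates, with list means from 9.79 to 12.63 in DiI-positive and from 7.84 to 9.07 in DiI-negative libraries. None of its 8 markers was at 0. The B cell list ran from 12.38 to 13.47 in DiI-positive and from 11.65 to 12.26 in DiI-negative libraries. Within each group the Kupffer list mean was lowest in replicate 1 and highest in replicate 3. In empty DiI-positive and curcumin DiI-negative cells Pparg had the opposite order, highest in replicate 1 and lowest in replicate 3. In curcumin DiI-positive cells it was lowest in replicate 2, and in empty DiI-negative cells its libraries lay between 9.22 and 9.26. The part of these cell types in the difference of Pparg was not tested.

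**Figure D1:**
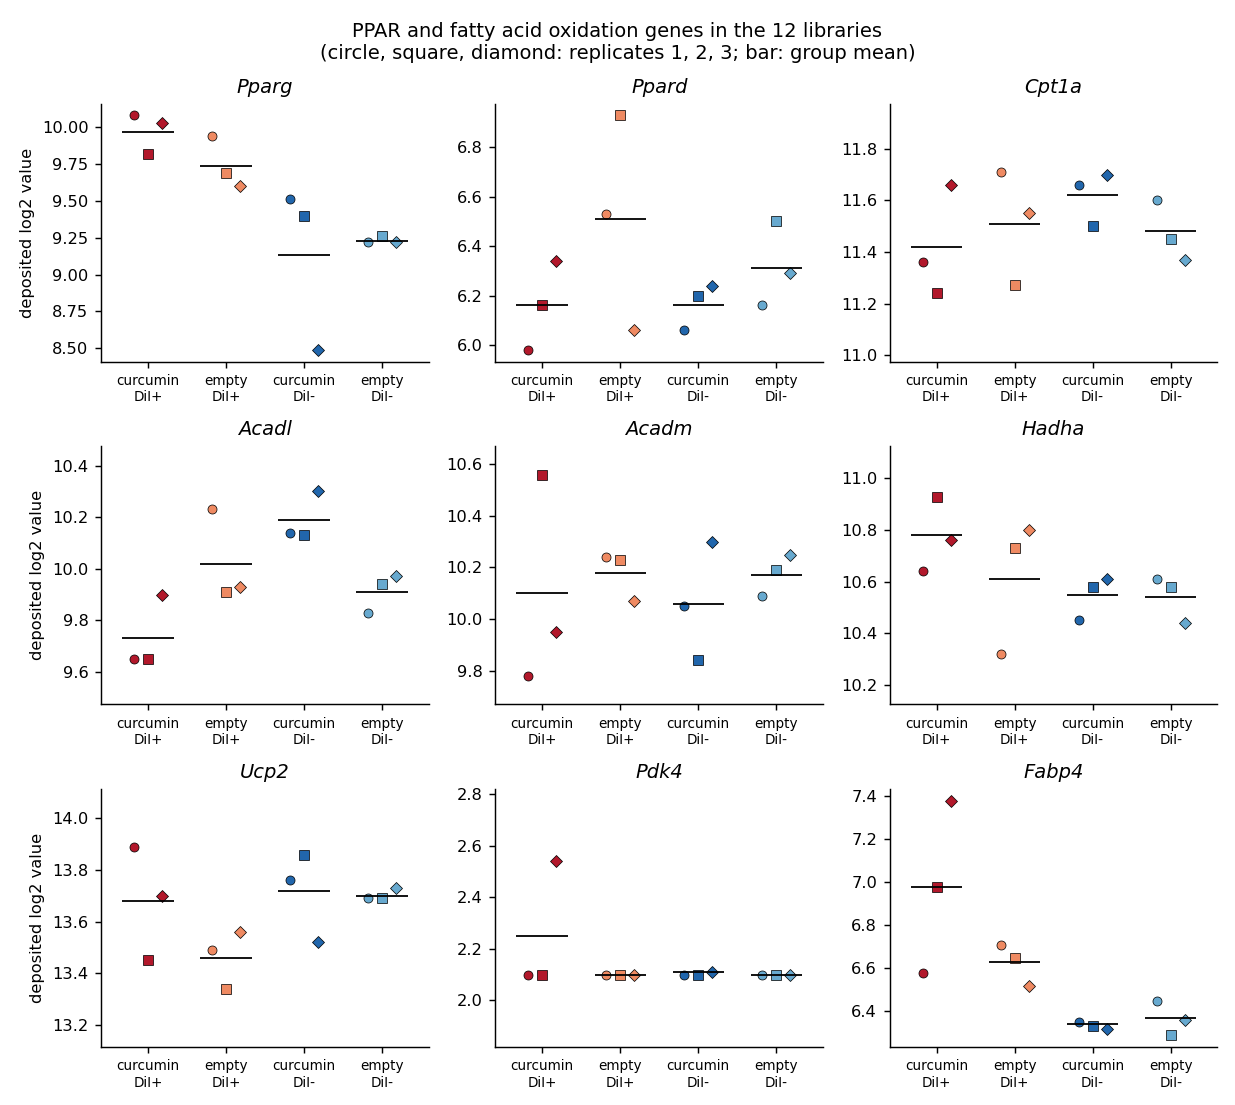
Deposited log2 value of each of the 9 genes (vertical axis, own scale per panel) in the 12 libraries, by group along the horizontal axis; circles, squares and diamonds are replicates 1, 2 and 3 and bars are group means. Pparg and Fabp4 lie higher in all 6 DiI-positive libraries than in the 6 DiI-negative ones, while the other panels show overlapping gates.

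Ppard, the more widely expressed receptor, did not differ detectably. It had 5.98, 6.16 and 6.34 in curcumin DiI-positive cells and 6.53, 6.93 and 6.06 in empty DiI-positive cells. It had 6.06, 6.20 and 6.24 in curcumin DiI-negative cells and 6.16, 6.50 and 6.29 in empty DiI-negative cells. The 4 groups overlapped, and empty DiI-positive replicate 2 was the highest library. Over both liposomes the difference was 0.09 ± 0.14 (95% interval -0.20 to 0.39; limma adjusted p = 0.711). Ppara, the receptor that dominates in hepatocytes, was listed at 0 in all 12 libraries. None of 10 hepatocyte markers was at 0 throughout. Their list mean was 6.35 in curcumin DiI-positive and 5.95 in empty DiI-positive cells. It was 5.98 in curcumin DiI-negative and 5.79 in empty DiI-negative cells. Over both liposomes 1 of the 9 markers kept (Ahsg) rose, against 5.54% of all genes, and 7 differences were above 0 and 2 below. By limma 7 of the 9 had an unadjusted p under 0.05, against 26.5% of all genes. Under curcumin the libraries of 6 lay higher in DiI-positive cells without overlap and those of 2 lower, against 9.88% and 10.7% of all genes. In DiI-positive cells all 9 curcumin minus empty differences were above 0, with 5 at an unadjusted p under 0.05, against 8.19% of all genes. The part of hepatocyte transcripts in any difference was not tested.

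The promoters are shown because PPARs and other nuclear receptors bind variants of the hexamer AGGTCA, and because Pparg was the receptor that rose. The RefSeq promoter table (build GRCm38.p6) held 8 of the 9 genes, with 10 transcription starts. Fabp4 had no entry, so its window was not searched, and neither were those of Lpl and Angptl4. In the 250 bases before the start, AGGTCA was searched on both strands and was present at 14% of the 32851 promoters of the table. It was present at 4 of the 10 starts, which belong to 3 of the 8 genes: Pparg, Cpt1a and Acadm. The spaced repeat AGGTCANAGGTCA, in which each unit is the same hexamer, was found in 11 promoters of the table (0.033%) and in none of the 10. Of the other risen genes with a window in the table, Cd36 and Cat held the hexamer and Lipa did not. The windows that held it in Pparg, Cd36 and Cat are given. Those of Cpt1a and Acadm, which were not called in any comparison, are not shown. Their match begins 94 bases before the start in Cpt1a and 249 in Acadm. Each window given reads 5′ to 3′ on the gene's strand, and capitals mark the hexamer or its reverse complement TGACCT.
Pparg, start at 115361144, chr6:115360894-115361143, plus strand: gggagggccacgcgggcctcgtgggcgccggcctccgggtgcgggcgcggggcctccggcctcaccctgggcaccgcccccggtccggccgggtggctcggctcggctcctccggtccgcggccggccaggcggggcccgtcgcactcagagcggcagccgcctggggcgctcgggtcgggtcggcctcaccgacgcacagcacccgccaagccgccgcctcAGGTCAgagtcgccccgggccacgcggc
Pparg, start at 115362349, chr6:115362099-115362348, plus strand: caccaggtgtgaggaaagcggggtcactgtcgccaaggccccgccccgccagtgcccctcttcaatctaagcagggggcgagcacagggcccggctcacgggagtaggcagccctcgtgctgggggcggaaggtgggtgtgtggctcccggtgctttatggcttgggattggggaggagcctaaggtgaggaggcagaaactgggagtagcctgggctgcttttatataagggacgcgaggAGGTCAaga
Cd36, chr5:17835897-17836146, minus strand: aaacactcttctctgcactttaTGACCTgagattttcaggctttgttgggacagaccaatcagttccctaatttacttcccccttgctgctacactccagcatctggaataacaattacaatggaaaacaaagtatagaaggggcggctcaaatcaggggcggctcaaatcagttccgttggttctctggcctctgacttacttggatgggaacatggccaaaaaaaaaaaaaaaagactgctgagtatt
Cat, chr2:103485154-103485403, minus strand: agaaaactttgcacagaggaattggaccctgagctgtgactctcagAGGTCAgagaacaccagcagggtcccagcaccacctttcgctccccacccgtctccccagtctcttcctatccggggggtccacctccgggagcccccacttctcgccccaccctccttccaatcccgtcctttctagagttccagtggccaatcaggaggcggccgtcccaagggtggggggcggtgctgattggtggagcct
The hexamer begins 28 bases before the upstream start of Pparg and 9 bases before the next one, both on the gene's strand, and the window of the start at 115422066 has none. In Cd36 the match begins 228 bases before the start, on the opposite strand, and in Cat 204 bases before it, on the gene's strand. These matches are letters in a window and were not measured as bound sites.

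Fabp4 (chromosome 3, 10204088 to 10208576, minus strand, GRCm38), a fatty acid carrier of fat cells, macrophages and capillary endothelium and a textbook target of Pparg, rose in DiI-positive cells. Its values were 6.58, 6.98 and 7.38 in curcumin DiI-positive cells and 6.71, 6.65 and 6.52 in empty DiI-positive cells. They were 6.35, 6.33 and 6.32 in curcumin DiI-negative cells and 6.45, 6.29 and 6.36 in empty DiI-negative cells. The DiI-negative libraries lay close together, and the DiI-positive libraries all lay above them and spread upwards, with curcumin replicate 3 at the top. The mean was 6.80 ± 0.32 in DiI-positive and 6.35 ± 0.05 in DiI-negative cells (SD, n = 6 each), a difference of 0.45 ± 0.12 (95% interval 0.19 to 0.71; limma adjusted p = 0.0312), or 1.37-fold on the shrunken scale.

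The group means of Fabp4 ran from curcumin DiI-positive (6.98 ± 0.40) through empty DiI-positive (6.63 ± 0.10) and empty DiI-negative (6.37 ± 0.08) to curcumin DiI-negative (6.34 ± 0.02; SD, n = 3 each). Both DiI-positive groups overlapped each other, and so did both DiI-negative groups. The DiI-positive minus DiI-negative difference was 0.65 ± 0.17 under curcumin (limma adjusted p = 0.0659) and 0.26 ± 0.17 under empty liposomes (adjusted p = 0.473). Under curcumin, with each of the 6 libraries left out in turn, it passed in 1 fit, that without curcumin DiI-positive replicate 1 (0.85, adjusted p = 0.019). The largest limma adjusted p of the 6 fits was 0.169. Over both liposomes, leaving out curcumin DiI-positive replicate 3 gave 0.35 (adjusted p = 0.029). The call held in 3 of the 12 fits with one library left out, those without curcumin DiI-positive replicate 1, curcumin DiI-positive replicate 3 or empty DiI-positive replicate 3. In the other 9 the difference stayed between 0.43 and 0.47 with adjusted p from 0.0556 to 0.0748. With the depth index as a covariate it was 0.43 (adjusted p = 0.169).

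Endothelial and Kupffer cell transcripts moved with Fabp4 in part. The mean of the 9 sinusoidal and vascular endothelial markers was 6.47, 7.42 and 9.15 in curcumin DiI-positive replicates 1, 2 and 3, the same order as Fabp4. The Kupffer cell list mean had that order too (11.43, 11.88 and 12.63), but in empty DiI-positive replicates (9.79, 11.10 and 12.29) it had the opposite order to Fabp4. In empty DiI-positive libraries the endothelial list mean ran from 6.41 to 7.27, and the library at 7.27 had the lowest Fabp4 of the gate. In DiI-negative libraries the endothelial list mean ran from 6.22 to 7.46. Over both liposomes 2 of the 9 endothelial markers, Stab2 and Pecam1, rose in DiI-positive cells, against 5.54% of all genes. In curcumin DiI-positive replicates 1, 2 and 3 Stab2 (6.24, 9.87 and 12.02) had the order of the list mean. Pecam1 (11.88, 11.83 and 11.63) had the opposite order. Of the 6 adipocyte markers, 5 were at 0 in all libraries, Adipoq and Plin1 among them, and the list mean was 0.19 to 0.20. The part of endothelial cells or of Kupffer cells in the difference of Fabp4 was not tested.

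**Figure D2:**
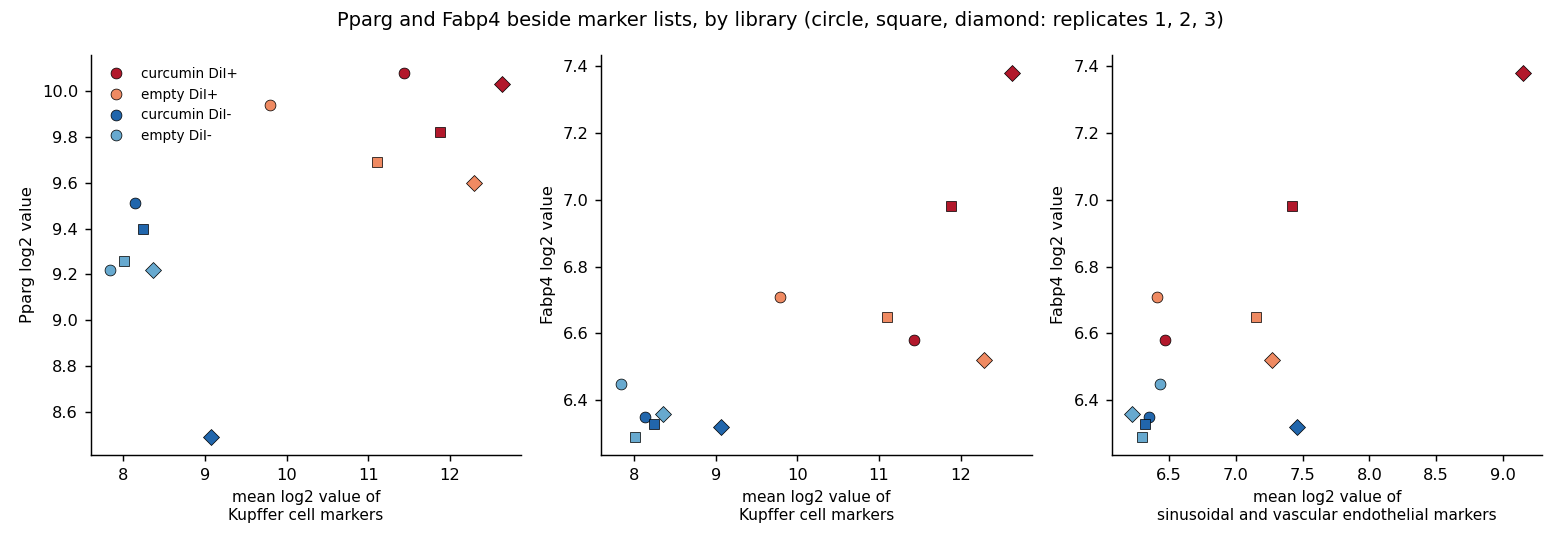
Pparg (left) and Fabp4 (middle) against the mean log2 value of 8 Kupffer cell markers, and Fabp4 against that of 9 endothelial markers (right); each point is 1 of the 12 libraries, coloured by group, with circles, squares and diamonds for replicates 1, 2 and 3. Curcumin DiI-positive replicate 3 is at the upper right of both Fabp4 panels, with Fabp4 at 7.38 and an endothelial mean of 9.15.

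Pdk4, a kinase that holds back pyruvate entry into the citric acid cycle and a strong PPAR target in muscle and liver, was at a floor value of its own, 2.10, in most libraries. It stood at 2.10, 2.10 and 2.54 in curcumin DiI-positive cells and at 2.10 in all 3 empty DiI-positive libraries. In DiI-negative cells it stood at 2.10, 2.10 and 2.11 after curcumin liposomes and at 2.10 in all 3 libraries after empty liposomes. Curcumin DiI-positive replicate 3 was thus the one library clearly off the floor value, and no test was made because the mean of 2.14 was under the filter of 4.

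Ucp2, a mitochondrial carrier of the uncoupling protein family that is abundant in immune cells, was not called in any comparison. It had 13.89, 13.45 and 13.70 in curcumin DiI-positive and 13.49, 13.34 and 13.56 in empty DiI-positive cells. It had 13.76, 13.86 and 13.52 in curcumin DiI-negative and 13.69, 13.69 and 13.73 in empty DiI-negative cells. Under empty liposomes all 3 DiI-positive libraries lay below the DiI-negative ones, by 0.24 ± 0.12 (95% interval of the difference -0.50 to 0.03; limma adjusted p = 0.334), while under curcumin liposomes the gates overlapped and the difference was -0.03 ± 0.12 (adjusted p = 0.915). Ucp2 shares 305 exon bases with Dnajb13 on the opposite strand, and whether the authors counted by strand is not given in the sources used here, so reads within those bases cannot be assigned to one of the pair.

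The 4 oxidation enzymes showed no call in any of the 6 comparisons. Of all genes tested, the gate comparisons called 3.07% under curcumin liposomes, 2.95% under empty liposomes and 12.1% over both, and the other comparisons 0%. With such shares, the absence of calls among 4 genes does not set them apart from other genes. Cpt1a, the outer membrane carnitine palmitoyltransferase that is the main control point of mitochondrial oxidation, had 11.36, 11.24 and 11.66 in curcumin DiI-positive and 11.71, 11.27 and 11.55 in empty DiI-positive cells. It had 11.66, 11.50 and 11.70 in curcumin DiI-negative and 11.60, 11.45 and 11.37 in empty DiI-negative cells. All 4 groups overlapped, and the difference over both liposomes was -0.08 ± 0.10 (95% interval -0.30 to 0.13; limma adjusted p = 0.642).

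Acadl (chromosome 1, 66830839 to 66863277, minus strand, GRCm38), the long-chain acyl-CoA dehydrogenase, was the enzyme whose groups overlapped least. It had 9.65, 9.65 and 9.90 in curcumin DiI-positive and 10.23, 9.91 and 9.93 in empty DiI-positive cells. It had 10.14, 10.13 and 10.30 in curcumin DiI-negative and 9.83, 9.94 and 9.97 in empty DiI-negative cells. Curcumin DiI-positive libraries were the lowest group apart from an overlap with empty DiI-negative replicate 1, and curcumin DiI-negative libraries lay above those of curcumin DiI-positive and empty DiI-negative cells. Under curcumin the DiI-positive minus DiI-negative difference was -0.46 ± 0.12 (95% interval -0.73 to -0.18; limma adjusted p = 0.071), which missed the threshold. With each of the 6 libraries left out in turn it passed in 1 fit, that without curcumin DiI-positive replicate 3 (-0.54, adjusted p = 0.0347). The largest limma adjusted p of the 6 fits was 0.206. Under empty liposomes the difference was 0.11 ± 0.12 (adjusted p = 0.717).

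Acadm, the medium-chain dehydrogenase, had 9.78, 10.56 and 9.95 in curcumin DiI-positive and 10.24, 10.23 and 10.07 in empty DiI-positive cells. It had 10.05, 9.84 and 10.30 in curcumin DiI-negative and 10.09, 10.19 and 10.25 in empty DiI-negative cells. The widest spread was within the curcumin DiI-positive group, which held both the lowest and the highest library. The difference over both liposomes was 0.02 ± 0.13 (95% interval -0.27 to 0.31; limma adjusted p = 0.947).

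Hadha, the alpha subunit of the mitochondrial trifunctional protein, had 10.64, 10.93 and 10.76 in curcumin DiI-positive and 10.32, 10.73 and 10.80 in empty DiI-positive cells. It had 10.45, 10.58 and 10.61 in curcumin DiI-negative and 10.61, 10.58 and 10.44 in empty DiI-negative cells. Under curcumin the DiI-positive libraries lay just above the DiI-negative ones, by 0.23 ± 0.14 (95% interval -0.07 to 0.53; limma adjusted p = 0.404), and over both liposomes the difference was 0.15 ± 0.10 with overlapping gates (adjusted p = 0.352). Hadha shares 75 exon bases with Garem2 on the opposite strand.

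Within each liposome, 0 of the 8 tested genes passed in either gate comparison. Under curcumin liposomes 3.07% of all genes tested were called. At an unadjusted p under 0.05 there were 3 of the 8 (Pparg, Fabp4 and Acadl), against 18.2% of all genes. The libraries of 4 of the 8 did not overlap between the gates (Pparg, Fabp4 and Hadha higher, Acadl lower) against 20.6% of all genes, 9.88% higher and 10.7% lower. Under empty liposomes 2.95% of all genes were called, and 1 of the 8 (Pparg) had an unadjusted p under 0.05, against 17.9% of all genes. The libraries of 3 of the 8 did not overlap (Pparg and Fabp4 higher, Ucp2 lower) against 26.9% of all genes, 12.3% higher and 14.5% lower. The median difference of the 8 was 0.01 under curcumin and 0.09 under empty liposomes, beside 0.00 over all genes in each comparison. Over both liposomes it was 0.06, beside 0.01.

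**Figure D3:**
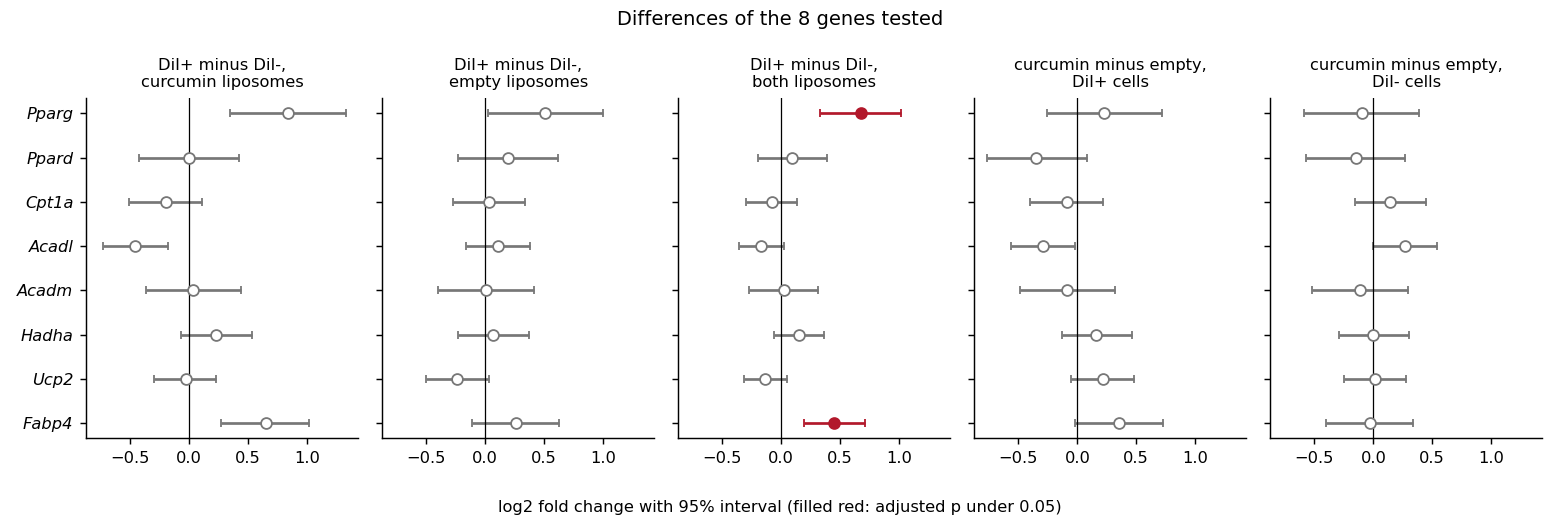
Log2 difference with its 95% interval (horizontal axis) for each of the 8 genes tested (vertical axis), in the 3 comparisons of DiI-positive with DiI-negative cells and the 2 of curcumin with empty liposomes; filled red points have an adjusted p under 0.05. The 2 filled points are Pparg (0.68) and Fabp4 (0.45) over both liposomes.

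Curcumin was set against empty liposomes within each gate, to ask what the cargo did to these genes in cells with and without the dye. No gene passed in either gate by limma, so 0% of the 14227 genes were called, with 1165 genes at an unadjusted p under 0.05 in DiI-positive and 469 in DiI-negative cells. Of the 8 genes, Acadl alone had an unadjusted p under 0.05, in both gates and with opposite signs. In DiI-positive cells Acadl averaged 9.73 ± 0.14 after curcumin and 10.02 ± 0.18 after empty liposomes, a difference of -0.29 ± 0.12 (95% interval -0.56 to -0.02; limma adjusted p = 0.583). In DiI-negative cells it averaged 10.19 ± 0.10 after curcumin and 9.91 ± 0.07 after empty liposomes, a difference of 0.27 ± 0.12 (95% interval 0.00 to 0.54; adjusted p = 1). The libraries did not overlap in either gate, which held for 10% of all genes in DiI-positive cells (5.09% lower after curcumin) and 11.2% in DiI-negative cells (5.73% higher after curcumin).

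The receptors and targets gave wide intervals for curcumin. In DiI-positive cells the curcumin minus empty difference was 0.23 ± 0.23 for Pparg (95% interval -0.26 to 0.72) and 0.35 ± 0.17 for Fabp4 (-0.02 to 0.73). It was -0.35 ± 0.19 for Ppard (-0.77 to 0.08) and 0.22 ± 0.12 for Ucp2 (-0.05 to 0.48). Limma adjusted p over the 8 genes ran from 0.583 to 0.934 in DiI-positive cells and was 1 for each in DiI-negative cells, where the differences lay between -0.15 and 0.27. Without curcumin replicate 3 of both gates, the Fabp4 difference in DiI-positive cells was 0.16 (adjusted p = 0.772). The test of whether the gate difference depended on the liposome passed for 0 genes in all (527 at an unadjusted p under 0.05) and 0 of the 8, of which Acadl alone had an unadjusted p under 0.05.

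Around these genes, 107 further genes of 9 lists were examined: receptor partners, mitochondrial and peroxisomal oxidation, uptake and activation, lipid droplets and lipolysis, PPAR targets, pyruvate dehydrogenase control and uncoupling, malonyl-CoA and energy sensing, and ketone bodies. Of the 87 that passed the filter, 5 rose and 3 fell in DiI-positive cells over both liposomes, in a comparison that called 5.54% of all genes as higher and 6.56% as lower. The median difference of the 87 was -0.02, beside 0.01 over all genes. Those that rose were Lpl, Cd36, Lipa, Angptl4 and Cat, and those that fell were Rxrb, Sirt3 and Dbi.

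Lpl, the lipase that frees fatty acids from circulating triglyceride and is made by macrophages among other cells, had the largest change of the 8. It stood at 13.21, 13.02 and 13.49 in curcumin DiI-positive and 13.06, 12.66 and 13.27 in empty DiI-positive cells, against 12.06, 12.62 and 11.59 in curcumin DiI-negative and 12.06, 12.23 and 12.02 in empty DiI-negative cells. Every DiI-positive library lay above every DiI-negative one. The difference was 1.02 ± 0.16, or 2.03-fold (limma adjusted p = 0.00275), and it passed with any one library left out. Under curcumin alone it was 1.15 ± 0.23 (adjusted p = 0.0248), and that call was lost in 4 of the 6 fits with a library left out, those without curcumin DiI-positive replicate 1 or 2 or curcumin DiI-negative replicate 1 or 3 (0.90 to 1.26, adjusted p 0.0538 to 0.09).

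Cd36, the fatty acid and oxidized lipoprotein receptor and a Pparg target in macrophages, stood at 11.81, 11.86 and 13.43 in curcumin DiI-positive and 12.07, 11.88 and 12.23 in empty DiI-positive cells. It stood at 11.41, 11.20 and 12.04 in curcumin DiI-negative and 10.82, 11.00 and 11.00 in empty DiI-negative cells. Curcumin replicate 3 was the highest library in each gate, and its DiI-negative library overlapped the DiI-positive ones. The endothelial list mean was also highest in these libraries, at 9.15 in curcumin DiI-positive and 7.46 in curcumin DiI-negative replicate 3. So were the list means of Kupffer cells (12.63 and 9.07), cDC1 (10.96 and 11.49), plasmacytoid (10.91 and 10.99) and mature dendritic cells (6.81 and 6.95). The B cell list mean was the lowest of each gate there (12.38 and 11.65). The part of these cell types in the level of Cd36 was not tested. The difference was 0.97 ± 0.26 (limma adjusted p = 0.0306). Without curcumin replicate 3 of both gates it was 0.83 (adjusted p = 0.000487).

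Lipa, the lysosomal acid lipase, rose by 0.60 ± 0.14 (limma adjusted p = 0.0163), with 12.95 to 13.56 in DiI-positive and 12.45 to 13.09 in DiI-negative libraries. Angptl4, a secreted inhibitor of Lpl and a PPAR target, rose by 0.59 ± 0.15 (adjusted p = 0.0281), with 7.58 to 8.19 in DiI-positive and 6.97 to 7.73 in DiI-negative libraries. Cat, the peroxisomal catalase, rose by 0.38 ± 0.10 (adjusted p = 0.0255), with 12.07 to 12.64 in DiI-positive and 11.89 to 12.26 in DiI-negative libraries. For these 3 genes the gates overlapped by one or a few libraries.

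Rxrb, a retinoid X receptor, fell by 0.28 (limma adjusted p = 0.0271), with no overlap, at 10.89 to 11.17 in DiI-positive against 11.22 to 11.48 in DiI-negative libraries. Sirt3, a mitochondrial deacetylase, fell by 0.47 (adjusted p = 0.0326), and Dbi, the acyl-CoA binding protein, by 0.43 (adjusted p = 0.046). Neither Sirt3 nor Dbi passed when replicate number was added to the fit as a block. Sirt3 shares 418 exon bases with Ric8a and 342 with Psmd13 on the opposite strand.

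The list of mitochondrial oxidation enzymes, which holds Cpt1a, Acadl, Acadm and Hadha, had no call by limma among its 19 genes kept in any of the 6 comparisons. Of all genes, 12.1% were called over both liposomes, 3.07% under curcumin liposomes, 2.95% under empty liposomes and 0% in the other comparisons. Over both liposomes its median difference was -0.06, its range -0.17 to 0.23, and 1 gene had an unadjusted p under 0.05 (1 to 3 genes in each of the 6 comparisons). The list mean was 9.14 to 9.26 in DiI-positive and 9.17 to 9.25 in DiI-negative libraries. The list of 19 PPAR targets, which holds Cpt1a, Acadm, Ucp2, Fabp4 and Pdk4, had 13 genes kept, of which 3 rose (Fabp4, Cd36 and Angptl4), none fell and 5 had an unadjusted p under 0.05. Over all genes 5.54% rose, 6.56% fell and 26.5% had an unadjusted p under 0.05. The median difference of the list was 0.15, beside 0.01 over all genes. Among the targets not called, the lipid droplet coat gene Plin2 had 0.15 ± 0.09 (limma adjusted p = 0.309).

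**Figure D4:**
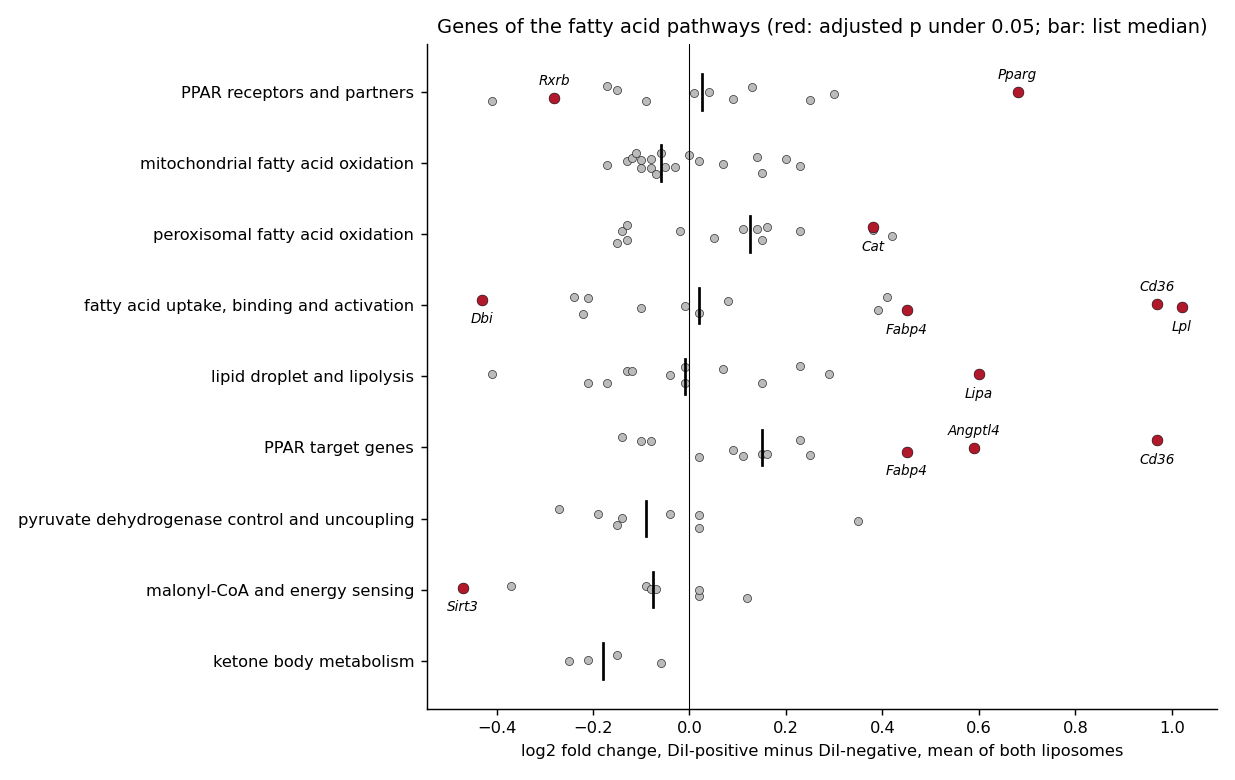
Log2 difference between DiI-positive and DiI-negative cells over both liposomes (horizontal axis) for every kept gene of the 9 lists (vertical axis); red points have an adjusted p under 0.05, vertical bars are list medians, points are spread vertically for legibility, and a gene in 2 lists appears in each. The mitochondrial oxidation genes lie between -0.17 and 0.23, while Lpl and Cd36 lie at 1.02 and 0.97.

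Calls of some of these genes depended on single libraries. With each of the 12 libraries left out in turn, Lpl and Lipa passed in 12 fits, Rxrb and Cat in 6, Angptl4 in 5, Cd36 and Sirt3 in 4 and Dbi in 2, and the largest adjusted p ran from 0.0097 for Lpl to 0.103 for Dbi. With the depth index as a covariate, Lpl and Cat kept their call of the 8 genes. Without curcumin replicate 3 of both gates, Lipa (0.49, adjusted p = 0.0531), Angptl4 (0.51, adjusted p = 0.0911) and Sirt3 (-0.41, adjusted p = 0.0997) did not pass. The Kupffer cell and B cell lists given above moved between the gates with these genes too. The endothelial list overlapped between the gates, at 6.41 to 9.15 in DiI-positive and 6.22 to 7.46 in DiI-negative libraries. The part of these cell types in the differences was not tested.

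**Figure D5:**
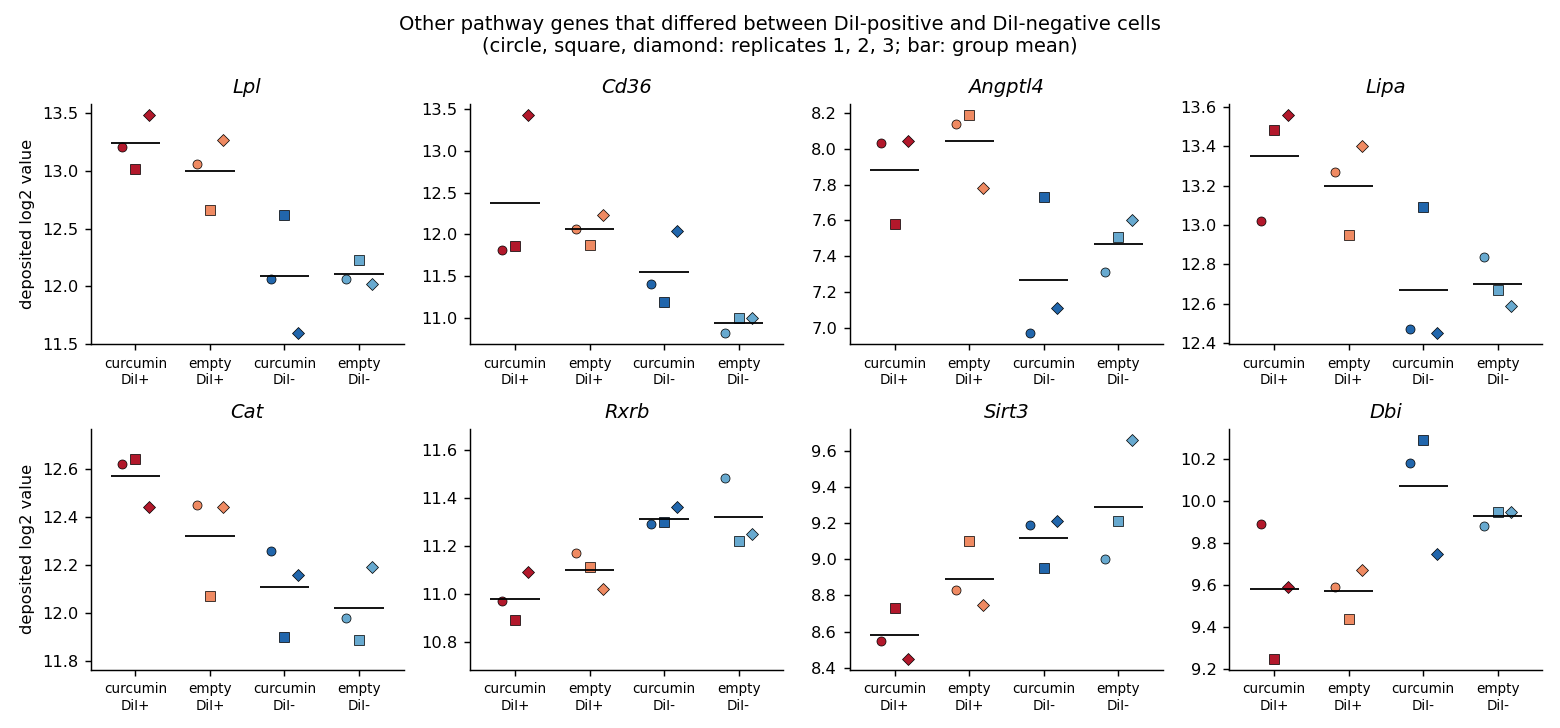
Deposited log2 value (vertical axis, own scale per panel) of 8 other pathway genes called between DiI-positive and DiI-negative cells, in the 12 libraries by group; circles, squares and diamonds are replicates 1, 2 and 3 and bars are group means. Lpl lies at 12.66 or above in every DiI-positive library and at 12.62 or below in every DiI-negative one, and Rxrb is lower in every DiI-positive library than in any DiI-negative one.

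The genes whose values ran closest to each member over the 12 libraries were ranked by Pearson r among the 14227 genes, a description in which all points share libraries, gates and depth. For Pparg they were Pilra (r = 0.91), Zcwpw1 (0.90) and Pla2g4a (0.90), all of which rose in DiI-positive cells (by 0.67, 0.49 and 0.55; limma adjusted p = 0.0195, 0.0149 and 0.00429). They were picked for running with Pparg, which parted the gates in these same libraries, so these tests add no separate support. Pilra and Zcwpw1 overlap on chromosome 5 on opposite strands and share 468 exon bases, within which their reads cannot be told apart. For Fabp4 the closest named gene was Ehd3 (r = 0.92), which was not called over both liposomes (0.94, limma adjusted p = 0.159). For Acadl and Cpt1a Ssx2ip was among the closest 3 (r = 0.87 with each), and for Ucp2 the closest was Eef1d (r = 0.98).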

How the data were processed

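Per the labels' protocols, cDNA from the sorted cells was amplified by SMARTer chemistry before Nextera XT library preparation. The authors deposited log2 values per gene, 1 column for each of 12 library codes. STAR 2.4.0d, DESeq2 1.8.1 and GRCm38 were used, per the submitters' processing notes; no source used here gives the counter, the annotation, the strand setting or the transform. The values run from -3.62 to 19.4, 20918 genes are at 0 throughout, and low genes are shrunken towards their mean, so differences of low genes are understated. Library codes were read against the series design (EL as empty, CL as curcumin, P as DiI-positive, N as DiI-negative). The number of reads is unknown; relative depth was estimated from 1009 genes that show a single count in 1 library. No libraries were identical (r from 0.9735 to 0.9942).

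A gene was kept where its log2 values averaged 4 or more (14227 genes). One limma 3.58.1 fit (R 4.3.3; 1 mean per group, eBayes with trend, 8 residual and 3.51 prior degrees of freedom) gave the 6 comparisons, with Benjamini-Hochberg adjustment over all genes kept; it was tested on simulated data. The text names every member, the called genes of each list (at most 6) and, for members kept, genes of the 3 highest r. The members and lists were chosen with earlier results of these data known. Some genes of the lists are not reported here and were left out of the lists' counts after the results were seen. Symbols and coordinates came from GENCODE M21 (99.2% of genes not at 0 matched). Alternatives were the filter, scaling, libraries fitted, a replicate block, library weights, prior variance, depth and libraries left out.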

Additional observations from a re-analysis of the deposited data

Results flagged for a closer look

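Acadl, the long-chain acyl-CoA dehydrogenase, stood out because its curcumin minus empty difference had opposite signs in the 2 gates with no overlap of libraries in either. It was lower after curcumin in DiI-positive cells (9.65, 9.65 and 9.90 after curcumin, against 10.23, 9.91 and 9.93 after empty liposomes). It was higher after curcumin in DiI-negative cells (10.14, 10.13 and 10.30 after curcumin, against 9.83, 9.94 and 9.97 after empty liposomes). The difference between the 2 effects was -0.56 ± 0.17 (95% interval -0.95 to -0.18; limma unadjusted p = 0.00755, adjusted p = 0.999), so it did not pass over all genes. It ran from -0.65 to -0.46 with each library left out in turn. Acadl was flagged from these same values, so the interval, the p-values and this range add no separate support. In this test 3.7% of all genes had an unadjusted p under 0.05 by limma. Only the members were searched for this pattern, so its share over all genes is not known.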

How the results depend on the processing

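Pparg over both liposomes kept its call under every alternative run except the depth index as a covariate, and no member changed sign where it was called. The values that changed sign belong to comparisons in which the member was not called and, library by library omissions apart, lay between -0.11 and 0.22. Under quantile normalization they were 0.01 for Ucp2 under curcumin, 0.00 for Acadm under empty liposomes and -0.05 for Ucp2 in DiI-negative cells. Under library weights they were 0.04 for Ppard under curcumin, 0.00 for Acadm under empty liposomes and -0.03 for Hadha in DiI-negative cells. With the depth index as a covariate they were 0.01 for Cpt1a, -0.11 for Acadm and 0.08 for Ucp2 under curcumin, -0.09 for Acadm and -0.02 for Hadha under empty liposomes, -0.10 for Ppard, 0.09 for Cpt1a and -0.10 for Acadm over both, and -0.02 for Acadm in the difference of the gate contrasts. Without curcumin replicate 3 of both gates they were 0.22 for Pparg and -0.03 for Hadha in DiI-negative cells and -0.02 for Pparg in the difference of the gate contrasts.

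With 1 library left out in turn, members that changed sign ran under curcumin from -0.10 to 0.09 (Ppard), -0.20 to 0.19 (Acadm) and -0.14 to 0.08 (Ucp2). Under empty liposomes they ran from -0.02 to 0.42 (Ppard), -0.07 to 0.16 (Cpt1a), -0.04 to 0.06 (Acadm) and -0.02 to 0.22 (Hadha). Over both liposomes they ran from -0.01 to 0.21 (Ppard) and -0.10 to 0.10 (Acadm). For curcumin minus empty they ran in DiI-positive cells from -0.21 to 0.01 (Cpt1a) and -0.32 to 0.07 (Acadm). In DiI-negative cells they ran from -0.29 to 0.22 (Pparg), -0.23 to 0.00 (Acadm), -0.05 to 0.05 (Hadha), -0.06 to 0.11 (Ucp2) and -0.07 to 0.01 (Fabp4). In the difference of the gate contrasts they ran from -0.42 to 0.01 (Ppard) and -0.21 to 0.18 (Acadm).

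Fabp4 under curcumin passed with quantile normalization (adjusted p = 0.0418) and with library weights (0.0421). The number of genes called between gates also moved. Under curcumin it was 437 as reported, 248 with no filter, 40 with only the groups compared, 68 with the depth covariate, 706 without curcumin replicate 3 of both gates, and 114 to 1088 with 1 library left out. Under empty liposomes it was 419, 263 with no filter, 789 with library weights, 171 with the depth covariate, 666 without curcumin replicate 3, and 85 to 263 with 1 library left out. Over both it was 1722, 478 with the depth covariate, and 1149 to 2244 with 1 left out. For curcumin minus empty in DiI-positive cells it was 0, 3 without curcumin replicate 3, and 0 to 4 with 1 left out; in the difference of the gate contrasts it was 0, 1 and 0 to 2. The causes of these moves were not tested.

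Whether the replicate numbers pair the libraries was not settled. Deviations of same-numbered libraries of different groups correlated from -0.114 to 0.328 (median 0.023, 18 pairs). Those of differently numbered libraries correlated from -0.245 to 0.197 (median -0.003, 36 pairs). The 18 pairs mix the gates of a liposome with pairs across liposomes, so a pairing of the gates alone could be hidden. With the replicate block 407, 405 and 1616 genes were called under curcumin, under empty liposomes and over both, and Dbi (adjusted p = 0.0625) and Sirt3 (0.0509) lost their calls. The shift of the median under other scalings was at most 0.037. Depth in reads is unknown, so low genes such as Pdk4 have no stated detection limit.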
